A study of Mus musculus with 8 samples.

Results

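The genes described here encode the protein cores of the spliceosomal small nuclear ribonucleoproteins (snRNPs), together with their close relatives in the LSM family. Members were taken by symbol: every gene whose name begins with Snrp and a letter, Snrnp and a number, Lsm and a number, or Sf3a or Sf3b and a number, with a mean of at least 2 counts per 1e6 counts of named genes (CPM) over the 8 libraries. This gave 41 members out of 42 matching symbols and 53655 symbols in all. Lsm11 lay just inside the limit at a mean of 3.34 CPM and the pseudogene Snrpert just outside it at 0.366 CPM. Of the members, 25 carry Snrp or Lsm names and 16 carry Snrnp or Sf3 names, and 38 had enough counts to be tested. Sf3a2, Snrpn and Lsm11 did not pass the filter on low counts.

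The libraries came from tuft cells of the mouse small intestine, rare epithelial cells that sense luminal signals and release IL-25 and acetylcholine. All mice were naïve and carried 1 Il25-RFP reporter allele with a Chat-GFP transgene, so both groups share the same genotype (Il25-RFP/+;Chat-GFP(Tg+)). Cells negative for CD45 and positive for EPCAM and RFP were sorted into a GFP-negative group (Chat-neg, 4 libraries) and a GFP-positive group (Chat-pos, 4 libraries), and each library is an RNA pool from sorted cells. Chat encodes choline acetyltransferase, the enzyme that makes acetylcholine, and a sort on GFP follows the transgene rather than the Chat gene itself. The labels give no age, sex or strain background and do not tie libraries to animals, so every p-value speaks only to the scatter among these libraries, some of which may be technical.

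Each spliceosomal snRNP is built around a small nuclear RNA that is wrapped by a ring of small Sm proteins (SNRPB, SNRPD1, SNRPD2, SNRPD3, SNRPE, SNRPF and SNRPG), while U6 carries a ring of related LSM proteins. Particle-specific proteins, many but not all of them larger, are added to these rings. They include U1-70K and the A and C proteins in U1, the SF3a and SF3b complexes in U2, and helicases such as SNRNP200 in U5. A second, minor spliceosome with U11 and U12 removes a small class of introns, and an LSM ring containing LSM1 works in the cytoplasm in messenger RNA decay.

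Depth differed between the groups. Counts in named genes were 87642 to 1176880 in Chat-neg and 1757401 to 2541955 in Chat-pos, and a single count in Chat-neg replicate 1, the shallowest library, was worth 11.6 CPM. A count of 0 in that library therefore allows up to 34.9 CPM (3 counts, counting error only). All 13 tuft cell markers on the list used were detected in both groups. Their summed level ran from 10401 to 17970 CPM in Chat-neg and from 23329 to 24581 CPM in Chat-pos, and 6 of the 13 were called lower in Chat-neg. Summed proliferation markers (12 genes) were 142 to 666 CPM in Chat-neg and 96.4 to 221 CPM in Chat-pos, with Chat-neg replicate 4 highest and 0 of 9 tested genes called. Summed stem cell markers (5 genes) were 69.9 to 830 CPM in Chat-neg, again highest in replicate 4, and 87.5 to 1043 CPM in Chat-pos. Goblet markers (7 genes, 1 of 7 tested called higher, Clca1, named after its value was seen) were 512 to 5526 CPM and 306 to 1571 CPM. T lymphocyte markers (8 genes) were 170 to 353 CPM and 2.49 to 289 CPM. Enterocyte markers (8 genes, 0 called) were 21628 to 46021 CPM and 33427 to 54767 CPM. Enteroendocrine markers (7 genes) were 593 to 1601 CPM and 1213 to 1919 CPM, and the 1 tested, Sct, was called lower in Chat-neg (edgeR adjusted p = 0.0155). Paneth cell markers (10 genes) reached 61532 CPM in Chat-pos replicate 2 and 33715 CPM in Chat-pos replicate 3, against 497 to 3583 CPM in the other 6 libraries. The part of these differences in the results below was not tested except where a value without a library is given. In such pools, fewer cells of a type and less RNA per cell cannot be told apart.

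In Chat-neg against Chat-pos, 7 of the 38 tested members were called higher (18.4%) and 0 were called lower by edgeR's quasi-likelihood test at a Benjamini-Hochberg adjusted p under 0.05. Over all 8919 genes tested, 2.87% were called higher and 3.62% lower. The 7 members were the Sm ring genes Snrpg (chr6:86371304-86379328, plus strand, GRCm38), Snrpd1 (chr18:10617775-10642079, plus), Snrpd2 (chr7:19149722-19153542, plus) and Snrpd3 (chr10:75517551-75537381, plus), the LSM ring gene Lsm5 (chr6:56701063-56704710, minus), the U2 gene Snrpb2 (chr2:143063039-143072853, plus) and the U1 gene Snrnp70 (chr7:45376453-45395742, minus). All are protein-coding genes on GENCODE's annotation. Their differences ran from 0.81 to 1.71 on the log2 scale, or 1.76-fold to 3.28-fold. At an unadjusted p under 0.05 there were 14 members (36.8%), 9 of them higher in Chat-neg (23.7%), against 20.8% and 9.88% of all genes tested. DESeq2 called 6 higher (2.96% of all genes) and 2 lower (3.88% of all), Sf3b1 and Snrnp25. With limma-voom 7 were called higher (4.51% of all) and 1, Snrnp25, lower (3.98% of all).

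Leaving out Chat-neg replicate 4 ended all 7 calls. In that fit, edgeR called 0 of the 39 members then tested in either direction, while 1.27% of all genes were called higher and 2.41% lower. At an unadjusted p under 0.05 there were 14 members, 8 of them higher. The share of all genes at that unadjusted threshold was not counted for this fit. Without Chat-neg replicate 4 the 7 differences were still above 0, at 0.64 to 1.21 on the log2 scale. Snrpg came closest to the threshold, at an edgeR adjusted p of 0.0514. Without the same library, DESeq2 called Snrpg higher (1.7% of all genes), and limma-voom called Snrpg, Snrpb2 and Snrnp70 higher (2.75% of all). Both called Snrnp25 lower (2.46% and 2.45% of all). Leaving out any other single library left between 3 and 7 higher calls, the fewest without Chat-pos replicate 3 (1.6% of all genes higher and 2.61% lower). Without both Chat-pos libraries rich in Paneth markers, Lsm5 and Snrpd1 were called higher (0.952% of all) and Snrnp25 lower (2.66% of all).

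**Figure D1:**
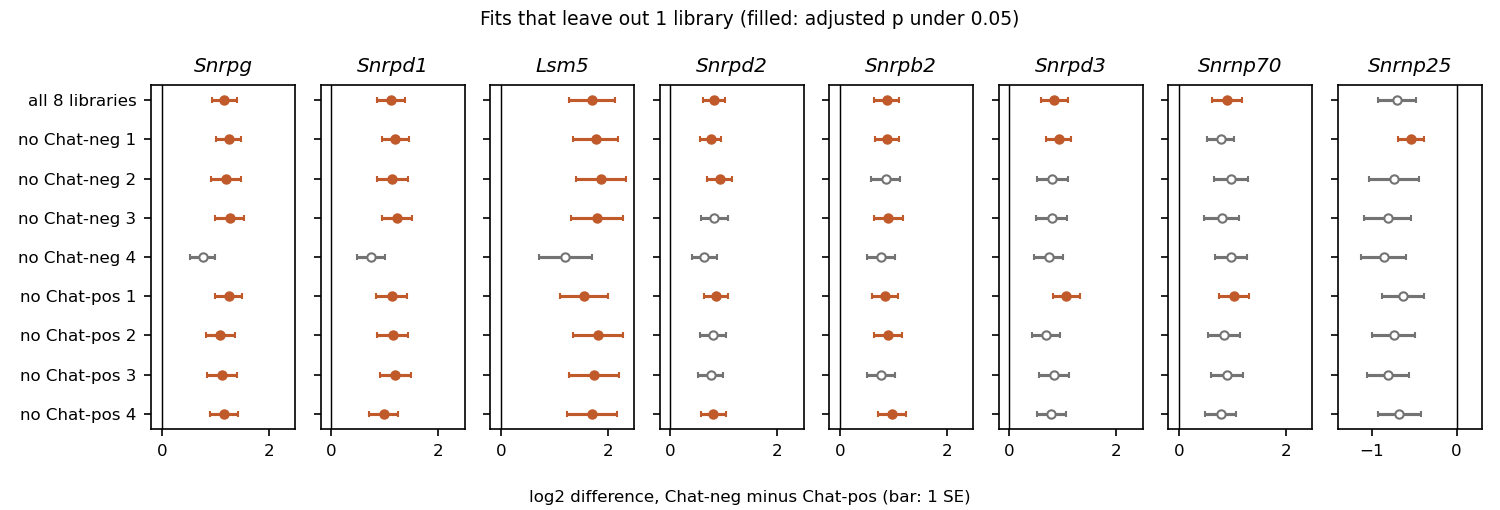
Log2 difference (Chat-neg minus Chat-pos, edgeR, bars ± 1 SE) of the 7 members called higher and of Snrnp25, from the fit on all 8 libraries and from 8 fits that each leave out 1 library. Filled points passed an adjusted p of 0.05. The 7 members stay above 0 in every fit, and none is called without Chat-neg replicate 4.

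The groups did not overlap for 12 tested members, 8 with all Chat-neg libraries above (21.1%) and 4 with all below (10.5%), against 5.42% and 8.58% of all genes tested. The 8 were Snrpd2, Snrpg, Snrpb2, Lsm2, Lsm5, Lsm12, Sf3a1 and Snrnp70, and the 4 were Lsm1, Lsm3, Sf3b1 and Snrnp25.

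The Snrp and Lsm genes and the Snrnp and Sf3 genes gave different counts. Of 23 tested Snrp and Lsm genes, 6 were called higher (26.1%), with a median log2 difference of 0.47 and 15 positive values. Of 15 tested Snrnp and Sf3 genes, 1 was called higher (6.67%), with a median of -0.0026 and 7 positive values. Over all genes tested the median was 0.02 and 51.5% of values were positive. Split by protein length instead, 6 of 24 members of up to 250 residues were called, with a median of 0.37, against 1 of 14 longer ones, with a median of 0.03. Split by membership of an Sm, LSM or U7 ring, 5 of 16 ring genes were called, with a median of 0.57. Of the 22 others, 2 were called, with a median of 0.03. The others include Lsm12, Lsm14a and Lsm14b, so this is not a split by protein fold. No test of the difference between these classes was made, because the members were chosen with results of these data known. Without Chat-neg replicate 4 the medians were 0.29 for Snrp and Lsm genes and -0.17 for Snrnp and Sf3 genes. Without Chat-neg replicate 1 they were 0.51 and -0.022. With the other 7 libraries also thinned to equal depth, only 33 members were tested. The medians over those were 0.26 and 0.19, so little of the gap between the classes was left in that smaller set.

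**Figure D2:**
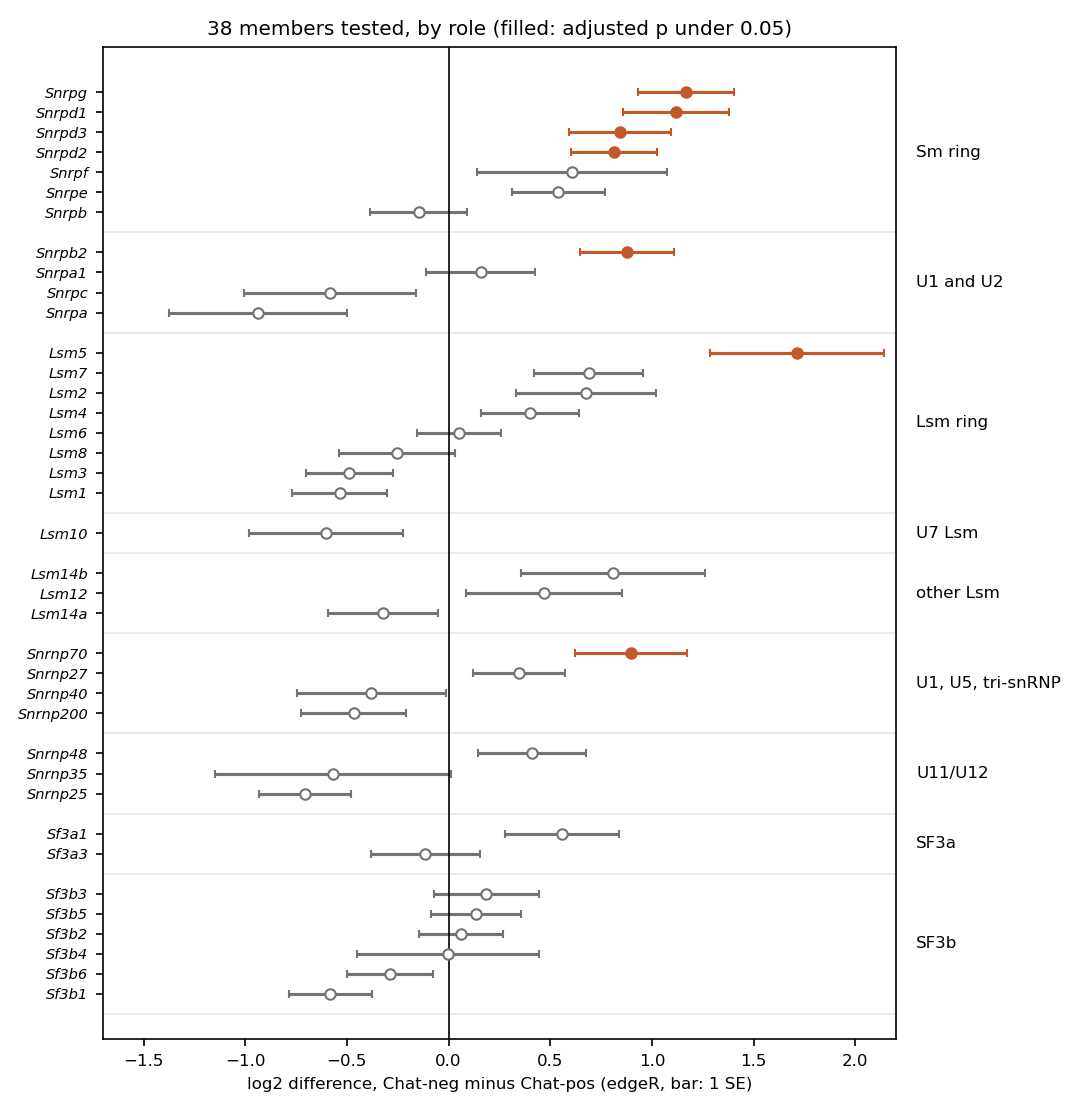
Log2 difference (Chat-neg minus Chat-pos, horizontal bars ± 1 SE) of the 38 tested members, grouped by the particle they belong to. Filled points passed an adjusted p of 0.05 in edgeR's test. The 4 filled Sm ring genes lie between 0.81 and 1.17, and no SF3a or SF3b gene is filled.

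The promoters of 4 members called higher, from the Sm ring, the LSM ring and U1, and of Snrnp25, the most abundant member, are printed to show which short elements they carry. RefSeq gave a start for 33 of the 41 members, 6 of the 7 called higher among them, and the windows run from 250 bases before to 30 bases after the start (GRCm38.p6). Capitals mark CGGAAG (the core of ETS sites), GCATGCGC (NRF1), GGGCGG (GC box) and CCAAT on either strand. Snrpg is at chr6:86371290-86371569 (plus strand), Snrpd2 at chr7:19149588-19149867 (plus), Lsm5 at chr6:56704670-56704949 (minus), Snrnp70 at chr7:45395713-45395992 (minus) and Snrnp25 at chr11:32205165-32205444 (plus).
Snrpg: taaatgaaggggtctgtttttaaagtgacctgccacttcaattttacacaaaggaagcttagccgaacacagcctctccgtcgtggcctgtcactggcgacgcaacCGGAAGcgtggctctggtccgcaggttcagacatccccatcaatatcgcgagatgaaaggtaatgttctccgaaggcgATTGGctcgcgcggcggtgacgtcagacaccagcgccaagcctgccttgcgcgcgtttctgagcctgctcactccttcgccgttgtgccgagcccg
Snrpd2: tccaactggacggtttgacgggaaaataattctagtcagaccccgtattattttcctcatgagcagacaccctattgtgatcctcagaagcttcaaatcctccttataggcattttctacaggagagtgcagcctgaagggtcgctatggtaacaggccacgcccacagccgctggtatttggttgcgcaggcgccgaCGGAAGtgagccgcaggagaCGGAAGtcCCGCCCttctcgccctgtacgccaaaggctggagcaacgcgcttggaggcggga
Lsm5: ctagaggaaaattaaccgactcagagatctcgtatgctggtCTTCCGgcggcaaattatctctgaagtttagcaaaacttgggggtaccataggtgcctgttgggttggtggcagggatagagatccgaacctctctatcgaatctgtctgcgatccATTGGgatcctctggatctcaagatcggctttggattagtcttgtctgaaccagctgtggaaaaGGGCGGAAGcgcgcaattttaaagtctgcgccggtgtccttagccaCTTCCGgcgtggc
Snrnp70: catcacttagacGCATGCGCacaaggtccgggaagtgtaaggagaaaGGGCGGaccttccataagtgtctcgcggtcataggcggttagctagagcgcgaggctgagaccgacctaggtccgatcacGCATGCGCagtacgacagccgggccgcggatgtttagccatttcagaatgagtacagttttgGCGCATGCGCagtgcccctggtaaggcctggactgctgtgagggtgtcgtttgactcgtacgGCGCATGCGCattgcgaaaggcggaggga
Snrnp25: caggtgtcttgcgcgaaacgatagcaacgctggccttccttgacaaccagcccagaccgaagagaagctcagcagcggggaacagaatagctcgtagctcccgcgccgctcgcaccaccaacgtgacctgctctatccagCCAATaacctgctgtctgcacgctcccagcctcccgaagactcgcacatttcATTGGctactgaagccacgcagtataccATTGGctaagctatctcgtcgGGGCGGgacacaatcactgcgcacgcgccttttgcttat

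Snrpg, Snrpd2 and Lsm5 hold 1, 2 and 3 CGGAAG matches, and 1 of those in Lsm5 overlaps a GC box. GENCODE starts the Snrpg and Snrpd2 genes (at 86371304 and 19149722) well ahead of the RefSeq starts used here. The CGGAAG matches of both therefore lie inside the gene as GENCODE annotates it. Snrnp70 holds none, but GCATGCGC or its reverse stands at 4 places, where the letters are nearly the same on both strands and so give 6 matches. Snrnp25 holds neither, and carries 3 CCAAT boxes and 1 GC box. CGGAAG was found in 20 of the 33 member promoters (60.6%) and in 16.3% of 27025 RefSeq promoters of the same length. GCATGCGC was found in 12.1% of members and 2.67% of all, GGGCGG in 66.7% and 34.9%, and CCAAT in 36.4% and 36.6%. TATAAA and CACGTG were found in 9.09% and 3.03% of members, against 13.7% and 6.89% of all. Among the 6 promoters of genes called higher, 4 held CGGAAG. The shares of all promoters include genes not tested here, and no share among tested genes alone was counted. These letters were chosen after the sequences had been read, and a match is a description, not a bound site.

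The Sm ring genes encode the proteins that close around the Sm site of the U1, U2, U4 and U5 RNAs, and 4 of the 7 tested were called higher. Their median difference was 0.81 and 6 of the 7 values were positive. Snrpg, which encodes SmG, read 128, 180, 154 and 335 CPM in Chat-neg replicates 1 to 4 and 108, 79.3, 88.8 and 92.2 CPM in Chat-pos replicates 1 to 4. No Chat-neg library reached down to the Chat-pos range, and Chat-neg replicate 4 stood above the other Chat-neg libraries. The means were 199 ± 93.2 and 92.1 ± 12 CPM (SD, n = 4 each). The log2 difference was 1.17 ± 0.24 (SE, edgeR adjusted p = 0.00313), or a 2.3-fold difference. Of its 74-base transcript windows (the length of 1 read), 16.1% also occur in the processed pseudogene Gm8186, which held 11 counts over the 8 libraries.

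SmD1 and SmD2 bind each other as an early step of ring assembly. Snrpd1 read 58.2, 99.4, 82.9 and 173 CPM in Chat-neg and 51.6, 54.2, 61.0 and 35.8 CPM in Chat-pos. The groups overlapped only in that Chat-neg replicate 1, with 5 counts, lay below Chat-pos replicate 3. Its log2 difference was 1.1 ± 0.26 (edgeR adjusted p = 0.00809), with means of 103 ± 49.6 and 50.6 ± 10.7 CPM. Snrpd2 read 163, 103, 127 and 172 CPM in Chat-neg and 87.1, 75.7, 71.8 and 77.8 CPM in Chat-pos. All 4 Chat-neg libraries were above all 4 Chat-pos libraries, and the log2 difference was 0.81 ± 0.21 (edgeR adjusted p = 0.016). Without Chat-neg replicate 3 or 4, or without Chat-pos replicate 2 or 3, Snrpd2 no longer passed.

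SmD3 pairs with SmB in the ring. Snrpd3 read 46.5, 96.8, 97.5 and 111 CPM in Chat-neg and 76.5, 34.9, 54.8 and 47.1 CPM in Chat-pos. Chat-neg replicate 1, with 4 counts, lay among the Chat-pos libraries, and the other 3 Chat-neg libraries lay above them. The log2 difference was 0.84 ± 0.25 (edgeR adjusted p = 0.0386), and this call held only when no library, Chat-neg replicate 1 or Chat-pos replicate 1 was left out. Snrpd3 was the member called higher by edgeR that DESeq2 did not call (DESeq2 adjusted p = 0.054). Some exons of Snrpd3 overlap those of Gucd1 on the opposite strand, and reads of the pair cannot be told apart where the counting is not known to use strand.

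The other Sm genes were not called. Snrpe, for SmE, read 140, 164, 149 and 323 CPM in Chat-neg and 133, 118, 154 and 144 CPM in Chat-pos, with a log2 difference of 0.54 ± 0.23 (edgeR adjusted p = 0.171). Chat-neg replicate 4 was high and the other 7 libraries lay between 118 and 164 CPM. Snrpf, for SmF, read 11.5 to 20.9 CPM in Chat-neg and 4.35 to 13.2 CPM in Chat-pos, at 0.61 ± 0.47 (edgeR adjusted p = 0.509). Of the 74-base windows of Snrpf transcripts, 85.7% also occur in transcripts of other annotated genes, so its counts are uncertain, as are those of Snrpe, with 24.2%. Snrpb, for SmB, was the 1 tested Sm gene with a negative value: 34.9, 116, 117 and 181 CPM in Chat-neg against 131, 119, 154 and 147 CPM in Chat-pos, at -0.15 ± 0.24 (edgeR adjusted p = 0.786), a sign that turned when libraries were thinned to equal depth without Chat-neg replicate 1 (0.065). Snrpn, a close relative of Snrpb best known from neurons, was not tested and read 3.45 to 23.3 CPM in Chat-neg and 2.24 to 15.1 CPM in Chat-pos.

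All 7 tested Sm ring genes had their highest value in Chat-neg replicate 4, as did 16 of the 38 tested members. The share of all tested genes that were highest in that library was not counted, so these counts have no background beside them. Summed over the 8 Sm ring members, levels were 605, 776, 745 and 1322 CPM in Chat-neg and 596, 495, 608 and 568 CPM in Chat-pos. The lowest Chat-neg sum thus lay between the Chat-pos sums and the highest was far above them. The median deviation of the ring from its mean over 8 libraries, on the log2(CPM + 0.5) scale, was -0.18, 0.06, 0.26 and 0.87 across the Chat-neg replicates, against -0.25, -0.42, -0.18 and -0.41 across those of Chat-pos. Over all genes tested, the same measure was -0.19 in Chat-neg replicate 1 and 0.08 to 0.11 in the other 7 libraries. Chat-neg replicate 4 also had the highest summed proliferation markers, at 666 CPM. Birc5, a mitotic survivin gene, averaged 61.4 ± 45.3 CPM in Chat-neg and 16.8 ± 8.68 CPM in Chat-pos (edgeR adjusted p = 0.311). Pcna, also on that list, averaged 44.1 ± 20.5 CPM in Chat-neg and 44.9 ± 7.64 CPM in Chat-pos. Its log2 difference was -0.27 ± 0.29 (edgeR adjusted p = 0.655). Of the 9 tested genes on the list, 8 had positive values. The part of proliferating cells in the Sm ring result was not tested.

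**Figure D3:**
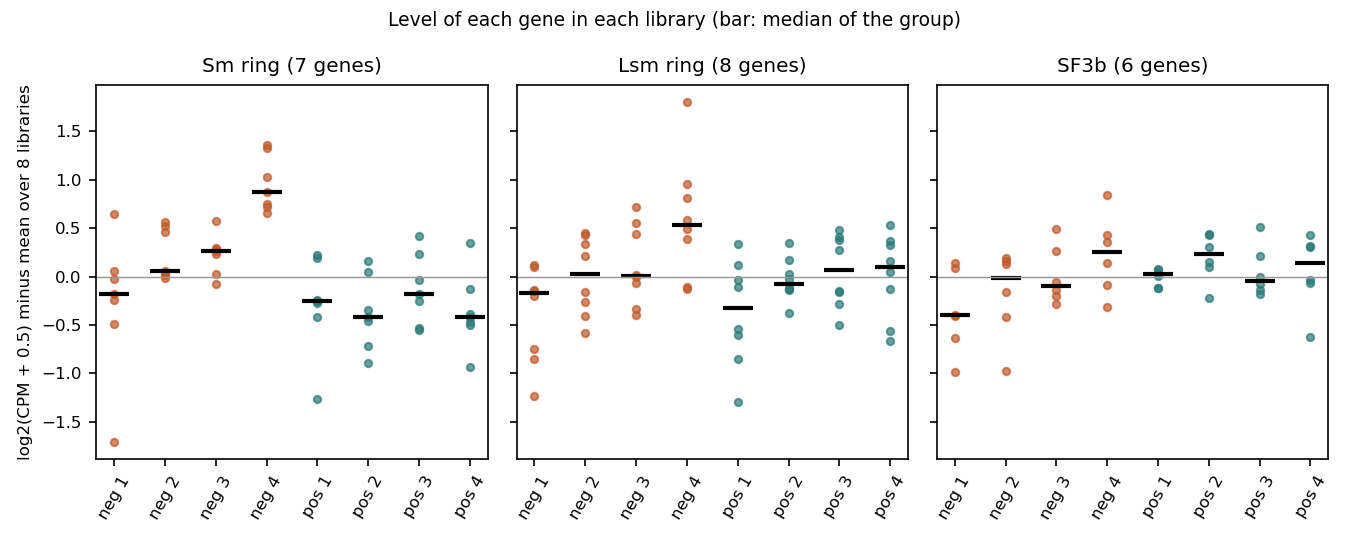
Level of each tested gene of the Sm ring (7 genes), the LSM ring (8 genes) and SF3b (6 genes) in each of the 8 libraries, as log2(CPM + 0.5) minus the gene's mean over the libraries. Black bars are medians per library. The Sm ring median is 0.87 in Chat-neg replicate 4 and below 0 in all 4 Chat-pos libraries.

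LSM2 to LSM8 form the ring on the end of U6, and LSM1 takes the place of LSM8 in the cytoplasmic ring. Of the 8 genes tested, 1 was called higher and 0 lower by edgeR, as by DESeq2 and limma-voom, with a median of 0.22. At an unadjusted p under 0.05 there were 2 higher and 2 lower. Lsm5 read 11.6, 17.8, 21.6 and 46.5 CPM in Chat-neg and 4.98, 9.86, 8.98 and 7.99 CPM in Chat-pos. The groups did not overlap, though the lowest Chat-neg value is a single count. The log2 difference was 1.71 ± 0.43 (edgeR adjusted p = 0.0129) in the fit on all libraries, or 3.28-fold, the largest among the 38 tested members there. Of its 74-base windows, 37.5% also occur in transcripts of other genes, among them Gm10074 and Gm7846, both with 0 counts in this table.

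The other 7 genes of the LSM ring were not called and had values on both sides of 0. Lsm7, of whose windows 59.8% recur in other genes, had a value of 0.69 ± 0.27 (edgeR adjusted p = 0.125), and Lsm2 of 0.67 ± 0.34 (edgeR adjusted p = 0.263), and Lsm2 did not overlap, at 20.7 to 38.5 CPM in Chat-neg and 11.8 to 19.8 CPM in Chat-pos. Lsm3 and Lsm1 lay the other way without overlap. Lsm3 read 46.5 to 85.5 CPM in Chat-neg and 95.0 to 112 CPM in Chat-pos, at -0.49 ± 0.21 (edgeR adjusted p = 0.182). Lsm1, the gene that marks the decay ring, read 48.4 to 59.4 CPM and 59.7 to 83.6 CPM, at -0.54 ± 0.23 (edgeR adjusted p = 0.177). In Chat-neg replicate 1, where 1 count is 11.6 CPM, Lsm2, Lsm3 and Lsm1 had 2, 4 and 5 counts. A single count more or less there could bring Lsm2 or Lsm1 to overlap. Lsm8, which marks the U6 ring, read 35.7 to 75.4 CPM and 36.7 to 77.8 CPM, at -0.25 ± 0.29 (edgeR adjusted p = 0.68). Lsm4 and Lsm6 had values of 0.40 ± 0.24 and 0.05 ± 0.21, and Lsm6 changed sign between processing choices.

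Outside that ring, LSM10 and LSM11 stand in for SmD1 and SmD2 in the U7 snRNP, which trims histone messages. Lsm10 had a log2 difference of -0.60 ± 0.38 (edgeR adjusted p = 0.392) and Lsm11 read 1.6 to 11.6 CPM in Chat-neg and 0.448 to 2.49 CPM in Chat-pos. Lsm12 read 46.5, 19.1, 17.3 and 20.9 CPM in Chat-neg and 13.9 to 17.0 CPM in Chat-pos, where the first value is 4 counts, at 0.47 ± 0.39 (edgeR adjusted p = 0.542). Lsm14a and Lsm14b, which encode proteins of cytoplasmic messenger RNA granules, had values of -0.32 ± 0.27 and 0.81 ± 0.45 (edgeR adjusted p = 0.554 and 0.319).

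Among the U1 proteins, U1-70K contacts the first stem loop of U1 RNA, and its gene Snrnp70 was the single Snrnp or Sf3 gene called higher. It read 93.1, 45.9, 59.6 and 44.9 CPM in Chat-neg and 37.9, 26.0, 30.7 and 22.7 CPM in Chat-pos, with no overlap. The means were 60.9 ± 22.5 and 29.3 ± 6.61 CPM, and the log2 difference was 0.90 ± 0.27 (edgeR adjusted p = 0.0448). Unlike the Sm genes, it was highest in Chat-neg replicate 1, with 8 counts. The call was lost when any library other than Chat-pos replicate 1 was left out. The other U1 genes, Snrpa for its A protein and Snrpc for its C protein, were not called. Snrpa read 0, 3.82, 12.9 and 24.1 CPM in Chat-neg and 18.0 to 28.6 CPM in Chat-pos, at -0.94 ± 0.44 (edgeR adjusted p = 0.216). Snrpc read 0 to 16.4 CPM and 14.3 to 26.9 CPM, at -0.58 ± 0.42 (edgeR adjusted p = 0.476). The genes of U1 therefore had values on both sides of 0.

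The B″ protein of U2, from Snrpb2, binds a stem loop of U2 RNA together with the A′ protein, from Snrpa1. Snrpb2 read 69.8, 77.7, 70.8 and 89.9 CPM in Chat-neg and 39.2, 44.4, 35.0 and 50.9 CPM in Chat-pos. The groups did not overlap, and the spread within each was small beside the gap, with means of 77.0 ± 9.24 and 42.4 ± 6.88 CPM. The log2 difference was 0.88 ± 0.23 (edgeR adjusted p = 0.0176). It no longer passed without Chat-neg replicate 2 or 4, or without Chat-pos replicate 3. None of the 74-base windows of Snrpb2 or Snrnp70 occurs in another gene. Its partner Snrpa1 had 0.16 ± 0.27 (edgeR adjusted p = 0.799), with 23.3 to 65.8 CPM in Chat-neg and 34.0 to 60.6 CPM in Chat-pos.

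**Figure D4:**
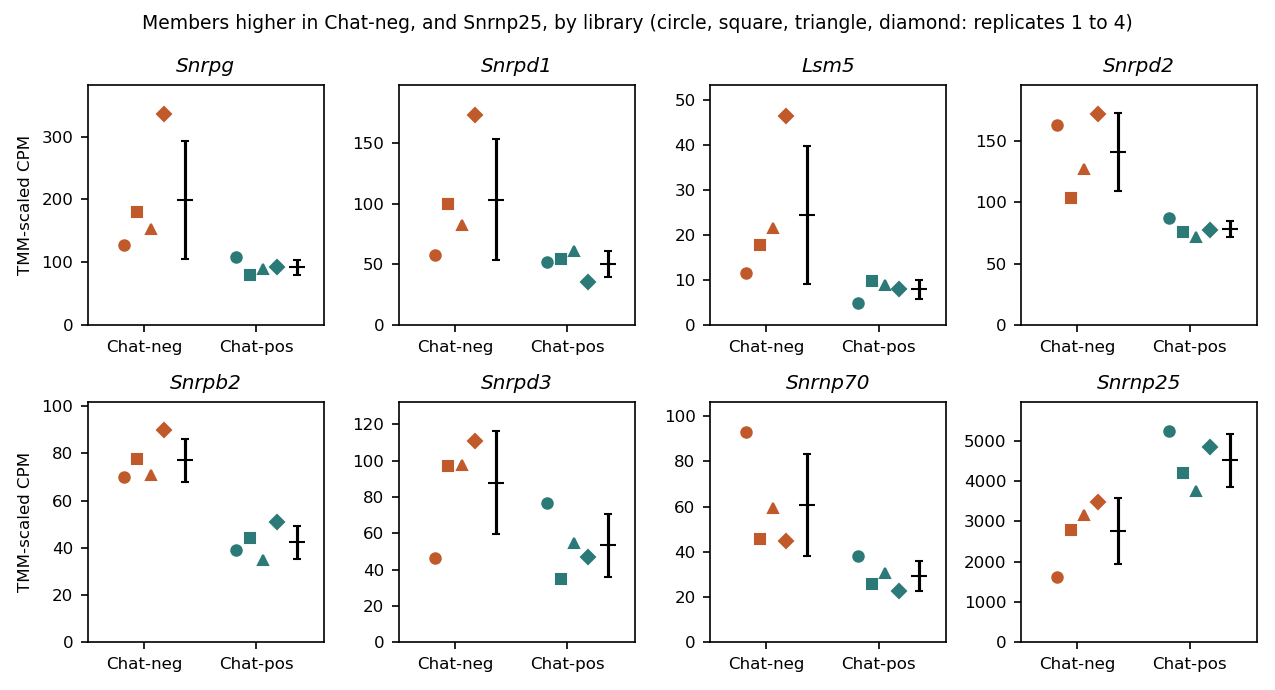
CPM in each library of the 7 members called higher in Chat-neg and of Snrnp25. Orange marks are Chat-neg and teal marks Chat-pos, circles, squares, triangles and diamonds are replicates 1 to 4, and bars are the mean ± SD (n = 4). Snrpg, Snrpd2, Lsm5, Snrpb2 and Snrnp70 show no overlap above Chat-pos, and Snrnp25 shows none below it.

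SF3a and SF3b hold U2 on the branch point. None of the 8 tested genes was called in either direction by edgeR, with a median of 0.03. At an unadjusted p under 0.05 there was 1, Sf3b1, which DESeq2 called lower, while limma-voom called 0. Sf3b1, the large subunit that grips the branch site, read 221, 262, 239.98 and 236 CPM in Chat-neg and 269, 397, 417 and 364 CPM in Chat-pos. The groups did not overlap, with Chat-pos 1.5-fold higher, and the log2 difference was -0.58 ± 0.20 (edgeR adjusted p = 0.0836). It passed in edgeR without Chat-pos replicate 1 and with an offset for exon length (adjusted p = 0.0171). Sf3b6, for the small subunit p14 at the branch adenosine, read 163 to 324 CPM and 267 to 313 CPM, at -0.29 ± 0.21 (edgeR adjusted p = 0.483). Sf3a1 read 34.5 to 58.6 CPM in Chat-neg and 22.2 to 34.1 CPM in Chat-pos without overlap, at 0.56 ± 0.28 (edgeR adjusted p = 0.254). The remaining tested subunits, Sf3a3, Sf3b2, Sf3b3, Sf3b4 and Sf3b5, had values from -0.11 to 0.19, and each changed sign under at least 1 other processing choice.

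SNRNP200 is the helicase that unwinds U4 from U6, SNRNP40 sits in U5, and SNRNP27 belongs to the joined U4/U6.U5 particle. Snrnp200 read 38 to 53.5 CPM in Chat-neg and 45.4 to 83.3 CPM in Chat-pos, at -0.47 ± 0.26 (edgeR adjusted p = 0.314). Snrnp27 and Snrnp40 had 0.35 ± 0.22 and -0.38 ± 0.37 (edgeR adjusted p = 0.411 and 0.616). Each of these 3 genes overlapped between the groups.

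Snrnp25 encodes a protein of the U11/U12 particle of the minor spliceosome and was the most abundant member by a wide margin. Per kilobase of transcript it stood at 3364 CPM in Chat-neg and 5500 CPM in Chat-pos, against 386 and 273 CPM per kilobase for Snrpe, the next member. Ranked by CPM per kilobase of exon, Snrnp25 was 17 of 8867 tested genes with a known length, and the next member, Sf3b6, was 379. Its level was 1617, 2791, 3167 and 3471 CPM in Chat-neg and 5245, 4201, 3759 and 4858 CPM in Chat-pos. All 4 Chat-pos libraries were above all 4 Chat-neg libraries, with means of 4516 ± 663 and 2762 ± 812 CPM, 1.63-fold higher in Chat-pos. The log2 difference was -0.70 ± 0.23 (edgeR adjusted p = 0.0575), just outside the threshold, and it ranged from -0.97 to -0.51 over the alternatives.

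Snrnp25 passed the threshold on the Chat-pos side with RLE or upper-quartile scaling, in DESeq2 and limma-voom, with an exon length offset (adjusted p = 0.000524) and without Chat-neg replicate 1. The other U11/U12 genes did not share its level. Snrnp48 read 44.0 to 52.2 CPM in Chat-neg and 28.2 to 47.9 CPM in Chat-pos, at 0.41 ± 0.26, and Snrnp35 read 1.6 to 11.6 CPM and 6.72 to 10.5 CPM, at -0.57 ± 0.58 (edgeR adjusted p = 0.408 and 0.64). Snrnp25 lies at chr11:32205415-32208984 on the plus strand (GRCm38). None of its exons overlaps another gene and none of its 74-base windows recurs elsewhere. The nearest gene, Rhbdf1, lies 601 bases away on the opposite strand and averaged 63.1 CPM in Chat-neg and 69.6 CPM in Chat-pos, and Il9r, 5136 bases away, averaged 14.1 and 24.7 CPM. Summed tuft markers were also lower in Chat-neg without overlap, and their part in the Snrnp25 difference was not tested.

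Exon length was set beside the differences because the shortest genes were called higher more often. Of 571 tested genes with under 1000 bases of exon, 11.9% were called higher, and of 1782 with 1000 to 1999 bases, 3.65%. In the 3 ranges of longer genes the shares were 1.66%, 1.86% and 1.97%. Of the members, 1 of 7 in the first range (Lsm5, 512 bases) and 4 of 18 in the second (Snrpg, Snrpd1, Snrpd2 and Snrnp70) were called, with Snrpb2 and Snrpd3 in the next ranges. The 7 short members had a median of -0.25, against 0.16 for all genes of that length. Across the 38 tested members the log2 difference had a Spearman rho of -0.05 with exon length and of -0.26 with protein length, as a description across genes that share the same 8 libraries. Over all 8867 tested genes with a known length, the rho with exon length was 0.09. Over all genes the median was -0.095 at 1000 to 1999 bases and 0.095 from 5000 bases. With 0.16 in the shortest range, the medians did not change steadily with length, and a rho cannot describe them. With an offset for exon length, the same 7 members were called higher (3.21% of all genes), and Sf3b1 and Snrnp25 were called lower (4.4% of all).

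**Figure D5:**
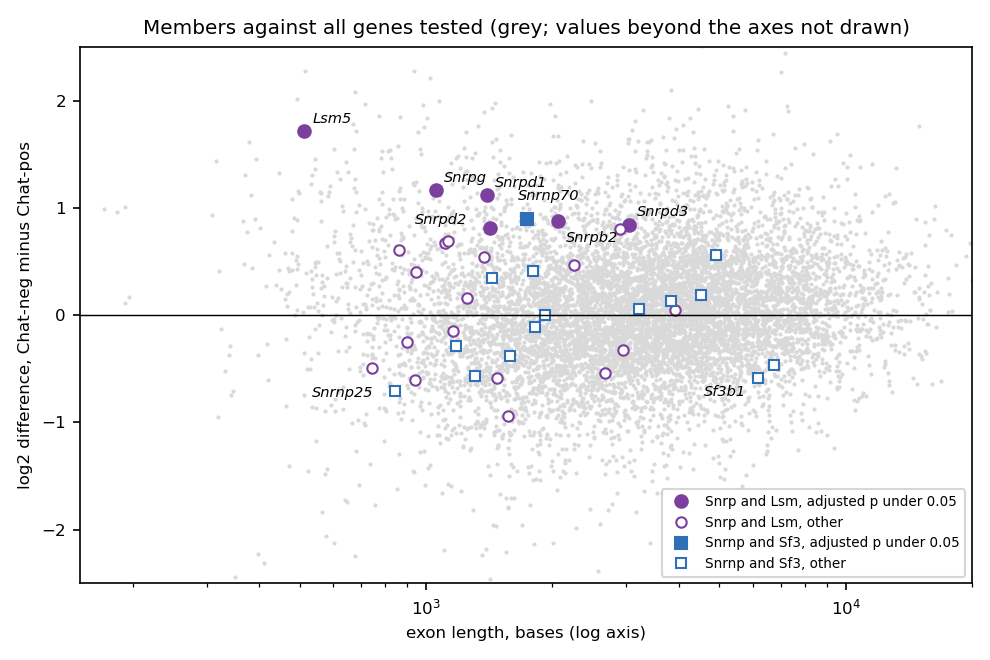
Exon length in bases (log axis) against the log2 difference (Chat-neg minus Chat-pos) of the tested members, over all genes tested in grey. Among members under 1000 bases, Lsm5 is called, and Snrnp25 (843 bases) lies at -0.70.

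Genes that work with these particles were taken from a list of 106 other splicing, snRNP assembly and decapping genes. Of the 95 tested, edgeR called 1 higher (1.05%) and 1 lower, with a median of 0.10. DESeq2 called 2 higher and 3 lower of 104, and limma-voom called 4 higher and 1 lower of 95. Over all genes tested, edgeR called 2.87% higher and 3.62% lower. The shares were 2.96% and 3.88% in DESeq2 and 4.51% and 3.98% in limma-voom. The list as a whole thus did not stand out from all genes. Aqr, a helicase-like protein of the activated spliceosome, was higher in Chat-neg (25.0 ± 7.91 and 8.70 ± 2.41 CPM, log2 difference 1.40 ± 0.42, edgeR adjusted p = 0.041). That call was lost without any single library except Chat-pos replicate 2. Dcp1b, a cofactor of decapping, was lower (95.9 ± 28.3 and 214 ± 32.5 CPM, -1.07 ± 0.21, edgeR adjusted p = 0.00238), and kept its call in every fit that left out a library. Of 10 tested genes of the SMN complex and Sm methylation, which load the Sm ring, 0 were called by edgeR, DESeq2 or limma-voom, with 2 at an unadjusted p under 0.05 and a median of 0.19. In that list Wdr77, a partner of the Sm methyltransferase, had 1.42 ± 0.49 (edgeR adjusted p = 0.0823). The smallest p among U2-associated genes was that of the helicase gene Ddx46, at 0.74 ± 0.23 (edgeR adjusted p = 0.053). It passed in DESeq2 and limma-voom (adjusted p = 0.0397 and 0.0251), with upper-quartile and total count scaling, with thinning and without Chat-neg replicate 1. Other genes with the smallest p of their lists were Magohb of the exon junction complex at 1.29 ± 0.42, Prpf6 of the tri-snRNP at 0.63 ± 0.26, the splicing factor Tra2a at 0.63 ± 0.25 and Zmat5 of the minor spliceosome at -0.73 ± 0.27 (edgeR adjusted p = 0.0612, 0.157, 0.136 and 0.105). Of these, Magohb passed in limma-voom (adjusted p = 0.031) and Zmat5 in DESeq2 (adjusted p = 0.0409). DESeq2 also called Phf5a lower and limma-voom called Sf1 higher, both named here after their values were seen.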

How the data were processed

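RNA-seq counts per gene symbol for 4 Chat-neg and 4 Chat-pos libraries were used as deposited by the authors in 1 table. Per the labels' protocols, cDNA was made with SMARTer v4 reagents and Nextera XT libraries were read as single reads over 74 cycles, with no molecular identifiers named. The submitters' processing notes name the build, GRCm38. No aligner, counting tool or annotation is given in the sources used here. Of 53806 rows, 36 had no gene name. They held 67.8% to 88.4% of counts in Chat-neg and 58.6% to 64.6% in Chat-pos, and entered neither library sizes nor tests. Rows sharing a symbol were summed.

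The test was edgeR's quasi-likelihood test (edgeR 4.0.16, R 4.3.3, TMM, filterByExpr, robust fit on group, Benjamini-Hochberg over 8919 genes, threshold 0.05). The common biological coefficient of variation was 28.1%. CPM values are per 1e6 TMM-scaled counts of tested genes. A standard error is the log2 difference over the root of its F statistic. The fit was tested on simulated data. Libraries of a group differed beyond counting noise.

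The alternatives used DESeq2 1.42.0, limma 3.58.1, other scalings and filters, a replicate block, an exon length offset, thinning to 610756 counts and leaving out libraries. Positions and transcript windows came from GENCODE M21 on GRCm38 and promoters from RefSeq on GRCm38.p6. The members and gene lists were chosen with earlier results of these data known. Any member could be named, with values per library for called members and the 3 smallest p of each class. Of the other splicing lists, called genes or else the gene with the smallest p were named, and of each marker list up to 2 abundant genes.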

Additional observations from a re-analysis of the deposited data

Results flagged for a closer look

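In groups of 4 libraries, the highest or lowest value was set apart where its gap to the nearest other value, as a share of the group's range in CPM, exceeded Dixon's critical value for 95%. This held in 4 of 76 groups of tested members, and chance gives about 1 in 20. Snrpe stood at 323 CPM in Chat-neg replicate 4 (201 counts), with the gap at 0.865 of the range. Lsm12 stood at 46.5 CPM in Chat-neg replicate 1, which is 4 counts in the shallowest library (0.877). In Chat-pos replicate 1, Lsm1 was lowest of its group at 59.7 CPM (96 counts, 0.912) and Lsm2 was lowest at 11.8 CPM (19 counts, 0.949).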

How the results depend on the processing

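Over 22 alternatives, 1003 single-gene comparisons gave 887 on the same side of the threshold and in the same direction, 60 calls lost, 28 gained and 28 changes of sign. The number of members called higher (7) became 2 with no filter on low counts (0.435% of all genes) and 2 without both Paneth-rich Chat-pos libraries, where all were Snrp or Lsm genes (2 and 2) and the Snrnp and Sf3 count was 0. That count was also 0 with the 5 CPM filter and with thinning without Chat-neg replicate 1. Members called lower (0) became 1 with RLE scaling (4.14% of all genes), upper-quartile scaling (3.68%), limma-voom, thinning (4.3%) and without the Paneth-rich libraries, and 2 with DESeq2, with the exon length offset and with that offset plus the block (4.03%). Leaving out single libraries gave 0 to 7 higher, of which Snrp and Lsm 0 to 6 and Snrnp and Sf3 0 to 1, and 0 to 1 lower. In 2 alternatives chosen after seeing the data, both without Chat-neg 4, DESeq2 gave 1 higher (Snrp and Lsm 1, Snrnp and Sf3 0) and 1 lower, and limma-voom 3 higher (Snrp and Lsm 2) and 1 lower, with Snrnp and Sf3 medians of -0.22 and -0.18. The Snrnp and Sf3 median moved to 0.12 with total count scaling, -0.20 with no filter, -0.14 with limma-voom, 0.083 with the length offset, 0.19 with thinning and -0.17 to 0.029 without single libraries. The Snrp and Lsm median ranged from 0.24 to 0.59 over these 22 alternatives. Apart from smaller sets of genes or libraries by construction, the cause was not tested.

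The changes of sign were all in genes that were not called. They were Sf3b4 at 0.021 (upper quartile), 0.12 (total count), 0.061 (block with length offset) and 0.083 (length offset), Lsm6 at -0.17 (no filter), -0.0053 (DESeq2) and -0.20 (without Paneth-rich libraries), Sf3b2 at -0.16 and -0.021, and Snrpa1 at -0.057 and -0.074 (no filter and without Paneth-rich libraries). Without a filter Sf3b3 was at -0.026 and Sf3b5 at -0.081, and Snrpb was at 0.065 with thinning. Without Chat-neg 4, DESeq2 gave Lsm6 -0.17, Sf3b3 -0.027 and Snrpa1 -0.085, and limma-voom gave Lsm6 -0.082. Leaving out single libraries, the ranges that crossed 0 were Lsm6 from -0.12 to 0.10, Sf3b5 from -0.056 to 0.22, Sf3a3 from -0.25 to 0.053, Sf3b4 from -0.50 to 0.29, Sf3b2 from -0.067 to 0.10 and Snrpa1 from -0.032 to 0.32.

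Total count scaling shifted the median of all genes to 0.14 and split the calls into 380 higher and 225 lower, against 256 and 323, and the 7 members stayed called. All genes gave 143 higher and 344 lower with no filter, 406 and 533 with DESeq2, 86 and 240 without the Paneth-rich libraries, and 110 to 309 and 138 to 360 without single libraries.

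The replicate numbers were not found to pair the libraries: same-numbered libraries had correlations of 0.0535, 0.0331, -0.0233 and -0.0102 of their deviations, and not every library correlated best with its own number. With the replicate block 6 members were called higher (2.58% of all genes) and 0 lower (3.25% of all), Lsm5 passing no longer (adjusted p = 0.0516). In Chat-neg replicate 1 a member under 34.9 CPM may read 0, so small differences of low genes were not detectable at this depth.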
